A study of Mus musculus with 16 samples.

Results

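FGF signalling in chimeric mouse embryos was described through 10 genes chosen by name from the 29453 genes of the count matrix. They were the ligands Fgf3, Fgf5, Fgf8, Fgf10 and Fgf15, the receptors Fgfr1 and Fgfr2, and the feedback genes Spry2, Spry4 and Dusp6. FGF ligands are secreted proteins that bind receptor tyrosine kinases together with heparan sulphate, and the receptors signal largely through RAS, MEK and ERK to ETS transcription factors. The Sprouty proteins and the ERK phosphatase DUSP6 are switched on by that signal and dampen it. In the early mouse embryo the pathway is known for the formation and migration of mesoderm at the primitive streak, for outgrowth of the tail bud and the limb, and for patterning of the pharynx, the heart field and the brain.

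The chimeras were made by placing tdTomato-labelled embryonic stem cells (ESCs) of CD1 background that lack Stat3 in CD1 blastocysts of the same stock, whose own cells are wild-type (WT), so that null cells and WT host cells developed in the same embryos up to E7.5, E8.5 or E9.5. Sorted tdTomato-positive (null) and tdTomato-negative (WT) cells were profiled as droplet 3′ single-cell RNA libraries, 2 of each genotype at E7.5, 2 of each at E8.5 and 4 of each at E9.5. Of 41832 cells, 37841 were analysed (17387 null and 20454 WT) in 87 cell types named by the authors, with 360 to 4327 cells and 20682659 to 138613245 unique molecular identifiers (UMIs, each 1 counted transcript) per library. The E7.5 and E8.5 embryos were pooled, the E7.5 embryos after sorting by size, and the E9.5 libraries outnumber the embryos named in the methods, so the libraries of a genotype need not be independent embryos and the p-values measure the spread between libraries. Null cells derive from cultured and labelled ESCs and WT cells from the host embryo, so the Stat3 genotype and this difference in origin cannot be told apart.

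Levels are counts scaled to a fixed total of UMIs per library (CPM), and the letters A to D only tell the libraries of a group apart. Fold changes come from fits that rescale the libraries over the genes tested (TMM). They can therefore differ in size or sign from what the CPM values give. Stat3 stood at 1.53 and 1.16 CPM in the null and at 9.31 and 6.82 in the WT libraries of E7.5, and lay lower in every null than in every WT library of each stage (mean difference -5.53 CPM over the stages; permuting genotypes inside each stage gave an exact two-sided p of 0.000794, and 2520 arrangements allow none smaller). The 3′ tags need not lie in the deleted part of the gene, so this level does not check the deletion itself. E9.5 WT C and WT D shared 292 barcode names among analysed cells and every other pair of libraries at most 8. In the cell annotation the 22040 barcodes listed for WT C are, in order, the first of the 24603 listed for WT D. The listed UMI total equals that of the matrix for all 41832 cells. The paired cells had the same cell type in 3.42% of cases, against 3.15% from the type shares alone, and their UMI totals were nearly unrelated (r = 0.05). In 41 checks of cell type labels against 4 markers each, the Hindbrain neural progenitors of E9.5 passed with 1 of 4 markers in both genotypes and the others with at least 3. These checks repeated some labels over stages and genotypes. Blood progenitors, Mesenchyme, Lateral plate mesoderm, Limb ectoderm, Optic vesicle and Posterior somitic tissues were among the labels not checked.

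Across WT host cells, the ligands Fgf3, Fgf5 and Fgf15 and the feedback gene Spry4 fell between E7.5 and E8.5. The feedback gene Dusp6 was higher at E9.5 than at E8.5, with a fitted log2 fold change under the threshold of 1. A gene was called where its adjusted p was under 0.05 and its absolute log2 fold change over 1 (edgeR quasi-likelihood test on counts summed per library, or per library and cell type, adjusted over all genes tested there). From E7.5 to E8.5, 4 of the 10 members were called in whole WT libraries, all lower, while 17.2% of all genes tested were called and 8.24% were called lower. From E8.5 to E9.5, 1 of 10 was called, against 9.72% of all genes. The median log2 fold change of the members was -0.69 in the first step and 0.03 in the second, beside 0.01 and 0.06 over all genes. In whole libraries a smaller number of cells of a type cannot be told apart from less RNA per cell, so each member was also followed inside those cell types that had over 15 cells in 2 or more libraries of both stages.

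**Figure D1:**
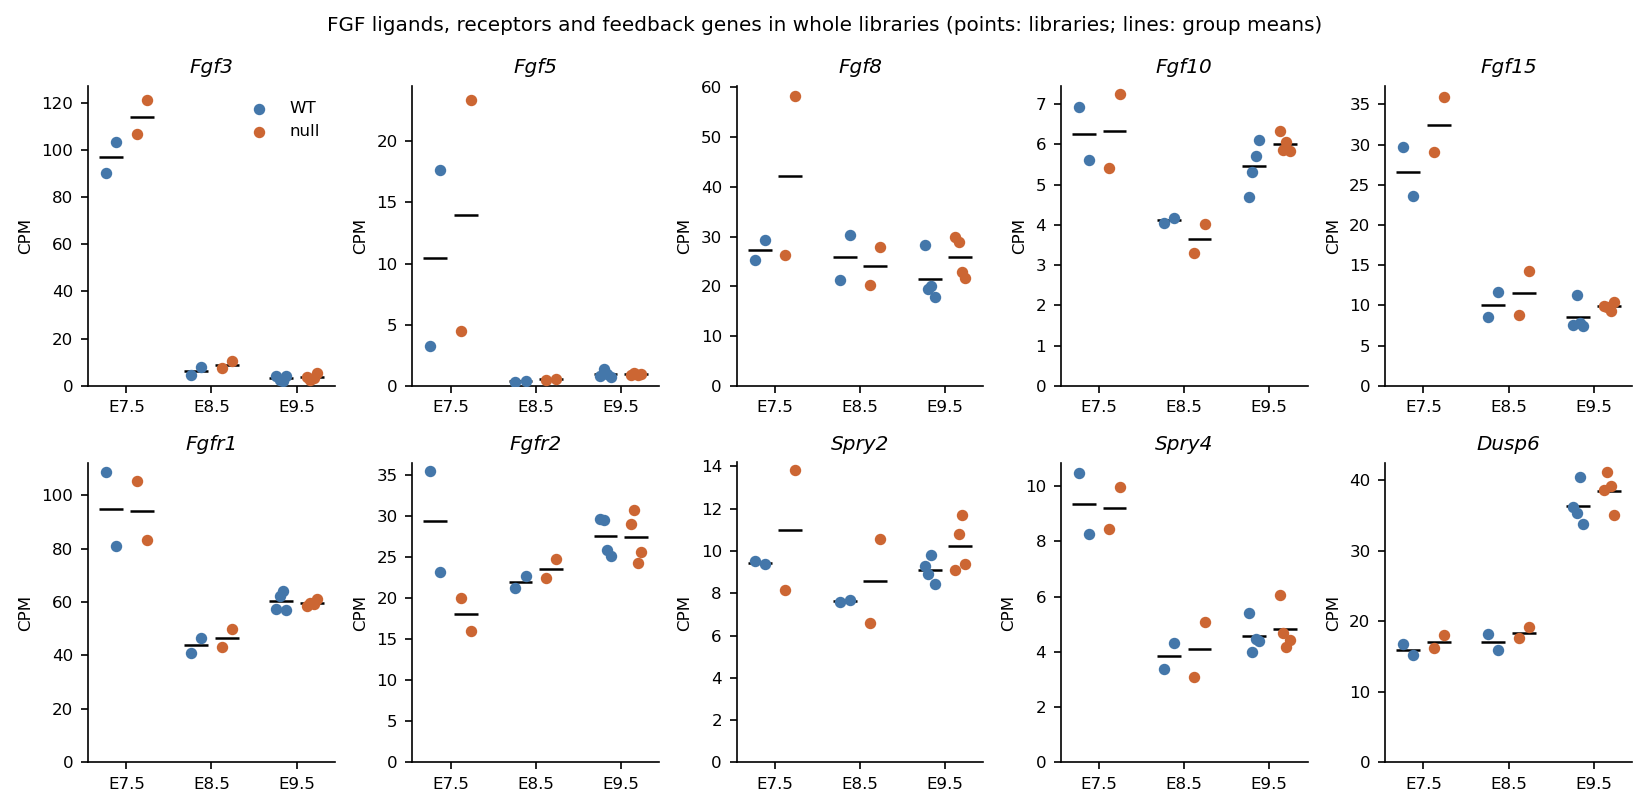
Level of each member (CPM, 1 panel per gene) in every library by stage, with WT in blue, null in orange and lines at the group means. Fgf3 stood at 90.3 to 121 CPM at E7.5 and at 2.15 to 5.46 CPM at E9.5, Dusp6 stood at 15.97 to 19.2 CPM at E8.5 and at 33.7 to 41.2 CPM at E9.5, and the genotypes overlapped for each member at E9.5.

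**Figure D2:**
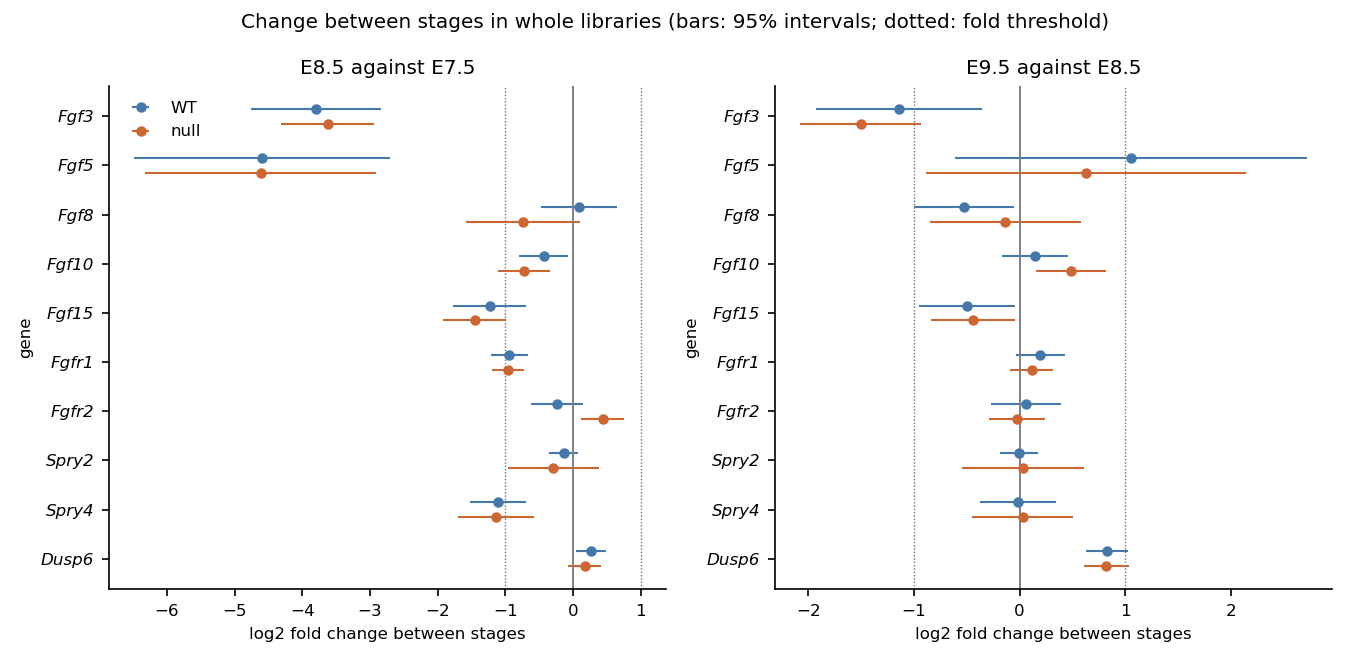
Log2 fold change between stages in whole libraries for each member, WT in blue and null in orange, with 95% intervals and dotted lines at the fold threshold of 1. From E7.5 to E8.5 the WT points of Fgf3 (-3.79), Fgf5 (-4.59), Fgf15 (-1.23) and Spry4 (-1.11) lie beyond the threshold, and from E8.5 to E9.5 Dusp6 stands at 0.83 in WT and 0.82 in null libraries.

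Fgf3 (chromosome 7, 144838083 to 144844436, GRCm38, plus strand), a ligand known for inner ear and tail development, fell at both steps in whole WT libraries. The E7.5 WT libraries held 90.3 and 103 CPM, those of E8.5 held 4.58 and 7.96 CPM, and 4.27, 2.67, 2.15 and 4.29 CPM at E9.5. No E8.5 library reached an E7.5 library, and the values of E9.5 lay below both E8.5 libraries. The fold change was -3.79 on the log2 scale from E7.5 to E8.5 (edgeR adjusted p = 0.000674) and -1.14 from E8.5 to E9.5 (edgeR adjusted p = 0.0331). The second call was lost without E8.5 WT B, where the log2 fold change was -0.71, without E9.5 WT B (-1.05), without E9.5 WT C (-0.98) and without the filter on low counts.

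At E7.5 Fgf3 was highest in blood-forming and other mesoderm. Among 11 WT types with enough cells, Blood progenitors were first at 597 and 623 CPM, then Mesenchyme at 156 and 147, followed by Lateral plate mesoderm at 124 and 148. Blood progenitors stood clear of Mesenchyme, and the other two overlapped. Blood progenitors made up 4.65% of WT cells and held 36.0% of the Fgf3 UMIs (here and for other types, the mean of the percentages in single libraries), and an Fgf3 UMI was found in 100% of their 107 cells. In ExE ectoderm, the trophoblast tissue taken here for comparison, 13.9% of cells held one, and the median cell had 38014 UMIs, against 40131 in Blood progenitors. After every cell had been thinned to 10000 UMIs the shares were 98.1% and 4.63%.

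Fgf3 then fell in Mesenchyme and Lateral plate mesoderm, while Blood progenitors were not compared between these stages. In Mesenchyme it dropped from 152 ± 6.13 CPM (SD, n = 2) at E7.5 to 1.66 ± 0.0365 CPM (n = 2) at E8.5, a log2 fold change of -6.45 (SE 0.23, edgeR quasi-likelihood adjusted p = 6.18e-11). In Lateral plate mesoderm it fell from 124 and 148 CPM to 0 and 6.66 CPM (log2 fold change -5.27, edgeR adjusted p = 0.0224), a call that was lost under DESeq2 and without E7.5 WT A or WT B. At E8.5 the highest types were Presomitic mesoderm (44.0 and 73.5 CPM) and Ventral hindbrain progenitors (34.3 and 46.9), which overlapped, then Pharyngeal endoderm (18.7 and 17.1), and 5 of 36 types held no Fgf3 UMI. The hindbrain level was lower a day later. Ventral hindbrain progenitors held 3.53, 4.80, 2.43 and 5.71 CPM at E9.5, far below both E8.5 libraries (log2 fold change -3.52, SE 0.23, edgeR adjusted p = 6.06e-10). In Dorsal spinal cord progenitors Fgf3 went from 6.54 and 4.00 CPM to 1.01, 2.62, 0.929 and 3.33 CPM (log2 fold change -1.66, edgeR adjusted p = 0.0179), a call lost under DESeq2 and without E8.5 WT A or E9.5 WT A. At E9.5 Somitic mesoderm (120.0 and 61.6 CPM in the 2 libraries with enough cells) and Presomitic mesoderm (101 and 72.8) led and overlapped, followed by Pharyngeal endoderm at 33.7, 37.5 and 40.8 CPM. In Pharyngeal endoderm these values lay above those of E8.5 (log2 fold change 0.90, edgeR adjusted p = 0.0058), under the fold threshold. Of the 6 types where Fgf3 passed the filter from E8.5 to E9.5, 3 had a log2 fold change above 0, and 2 were called, both lower.

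Fgf15 (chromosome 7, 144896531 to 144900953, GRCm38, plus strand), the mouse counterpart of human FGF19, is known from the embryonic neural tube and later from the gut, where it acts on bile acid synthesis. It starts 52094 bases downstream of the end of Fgf3, with Fgf4 between them. The WT libraries held 29.7 and 23.6 CPM at E7.5, 8.51 and 11.7 at E8.5, then 7.58, 11.3, 7.85 and 7.49 at E9.5. Both E8.5 libraries lay below both E7.5 libraries (log2 fold change -1.23, edgeR adjusted p = 0.00429), while E8.5 and E9.5 overlapped.

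Among the types with enough cells at each stage, those leading for Fgf15 were mesodermal at E7.5, and both neural and mesodermal later. The 11 WT types ranked at E7.5 included no spinal cord, hindbrain or Optic vesicle type, so such types could lead only at the later stages. At E7.5 Mesenchyme (68.3 and 63.5 CPM), Intermediate mesoderm (65.4 and 58.2) and Lateral plate mesoderm (75.7 and 46.5) led and overlapped. Mesenchyme held 1.49 ± 0.202 CPM (n = 2) at E8.5 (log2 fold change -5.40, SE 0.28, edgeR adjusted p = 8.09e-09). The lead at E8.5 was with Spinal cord progenitors (48.5 and 69.9 CPM) and Dorsal spinal cord progenitors (47.6 and 52.9), followed by Presomitic mesoderm (33.8 and 45.6). From there Fgf15 fell in 4 neural or neural crest types by E9.5. In Dorsal spinal cord progenitors it went from 47.6 and 52.9 CPM to 18.7, 27.6, 15.8 and 29.6 CPM (log2 fold change -1.27, SE 0.20, edgeR adjusted p = 0.000557), with no overlap. The other falls were -1.81 in Dorsal hindbrain progenitors, -1.85 in Ventral hindbrain progenitors and -1.56 in Migratory neural crest on the log2 scale. It rose in Optic vesicle, from 11.4 and 13.2 CPM to 35.1, 34.8, 53.6 and 29.6 CPM (log2 fold change 1.44, edgeR adjusted p = 0.00517), and Optic vesicle held 28.0% of the Fgf15 UMIs of E9.5 WT libraries from 5.64% of their cells. The Midbrain/Hindbrain boundary (20.01, 73.1 and 44.4 CPM) and Somitic mesoderm (56.2 and 22.5 CPM, from 56 UMIs in 40 cells) had higher means and overlapped it at E9.5. The calls in Ventral hindbrain progenitors, Migratory neural crest and Optic vesicle were lost without either E8.5 library, and that in Dorsal hindbrain progenitors without E8.5 WT B. Leaving out E9.5 WT C ended the call in Ventral hindbrain progenitors, and the call in Migratory neural crest was also lost under DESeq2, with over 50 cells per library, and without E9.5 WT B or WT C.

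Fgf8 (chromosome 19, 45736798 to 45742915, GRCm38, minus strand) is the ligand of the primitive streak, the isthmus between midbrain and hindbrain, the pharynx and the limb ridge. Its level in whole WT libraries overlapped across the stages, at 25.3 and 29.2 CPM at E7.5, 21.3 and 30.4 at E8.5, then 28.4, 19.6, 19.98 and 17.8 at E9.5. Neither step was called (log2 fold changes 0.08 and -0.53 in the rescaled fit, edgeR adjusted p = 0.804 and 0.0739). When the level was averaged over Lateral plate mesoderm and Mesenchyme, the only types with more than 15 cells in every WT library of E7.5 and E8.5, the first step was -1.96 (limma adjusted p = 0.00137).

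Among the types with enough cells, the leading one for Fgf8 differed at each stage. Caudal epiblast had too few cells to be ranked at E8.5, and neuromesodermal progenitors too few at E9.5, so neither could lead again at the next stage. Caudal epiblast led at E7.5 (98.2 and 114 CPM), clear of Intermediate mesoderm (87.2 and 64.5), followed by Non-neural ectoderm (30.5 and 51.3). At E8.5 the neuromesodermal progenitors, labelled NMPs, stood at 169 and 261 CPM and Pharyngeal endoderm at 199 and 180.4 CPM, which overlapped, and Pharyngeal endoderm held 19.9% of the UMIs from 2.98% of the cells. The highest E9.5 type was Limb ectoderm, the tissue whose ridge drives limb outgrowth, at 345 and 149 CPM in WT A and WT D, which overlapped Pharyngeal endoderm (273, 149.9 and 176) and Surface ectoderm (281, 131 and 55.2). In E8.5 Limb ectoderm the libraries held 0 and 6.15 CPM, from 2 UMIs in 41 cells. The ratio of the pooled levels was 122, with a 95% counting interval of 33.3 to 1009 (log2 fold change 6.60, SE 0.96, edgeR adjusted p = 0.0405). That call was lost without either E8.5 library. Null Limb ectoderm of E9.5 held 686 and 309 CPM in null A and null B.

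Fgf8 fell elsewhere. In Lateral plate mesoderm it went from 20.4 and 11.9 CPM at E7.5 to 1.01 and 2.05 CPM at E8.5 (log2 fold change -3.19, SE 0.51, edgeR adjusted p = 0.00019). In Placodal ectoderm it went from 92.7 and 47.2 CPM at E8.5 to 20.6 and 13.3 CPM at E9.5 (-2.18 on the log2 scale, SE 0.33, edgeR adjusted p = 0.000175). In the second heart field, labelled Cardiopharyngeal progenitors SHF, the E8.5 values of 117 and 90.8 CPM gave way to 31.1, 19.9 and 32.2 CPM (log2 fold change -2.01, edgeR adjusted p = 1.06e-05), with the call lost without E8.5 WT A. No value of the later stage reached the earlier stage in any of these types.

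Fgf10 (chromosome 13, 118669791 to 118792115, GRCm38, plus strand) is a mesenchymal ligand that signals to epithelium through FGFR2 in limb and lung. In whole WT libraries it held 6.92 and 5.62 CPM at E7.5, 4.05 and 4.17 at E8.5, then 4.69, 5.31, 5.72 and 6.11 at E9.5, and neither step was called. Among the types with enough cells, the leading ones differed between stages, and Blood progenitors had too few cells to be ranked at E8.5. Blood progenitors (21.7 and 18.8 CPM), Mesenchyme (21.1 and 12.3) and Lateral plate mesoderm (12.6 and 13.5) led at E7.5, where Mesenchyme overlapped both others. Cardiopharyngeal progenitors SHF led at E8.5 with 47.4 and 44.5 CPM, clear of Lateral plate mesoderm (22.2 and 17.9) and Limb mesoderm (17.7 and 18.3). At E9.5 that type (62.3, 42.8 and 26.7 CPM) overlapped Ventral forebrain progenitors (46.3, 47.0, 42.4 and 34.8 CPM) and Epicardium (9.25, 38.3, 19.1 and 25.5 CPM), while Limb mesoderm supplied 27.5% of the UMIs from 6.73% of the cells. Within types, Fgf10 fell in Mesenchyme by E8.5 (21.1 and 12.3 CPM to 7.09 and 4.91 CPM, log2 fold change -1.48, edgeR adjusted p = 0.00653), a call lost under DESeq2 and without E7.5 WT A or E8.5 WT B. It rose in the first heart field, Cardiopharyngeal progenitors FHF, from 4.13 and 8.05 CPM at E8.5 to 20.7, 27.3, 21.3 and 15.9 CPM at E9.5 (1.72 on the log2 scale, edgeR adjusted p = 0.0033), a call lost without E8.5 WT A. A fall in Erythroid cells (-1.43, edgeR adjusted p = 0.0456) was kept under 3 of the alternatives run and lost under 6.

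Fgf5 (chromosome 5, 98254184 to 98277030, GRCm38, plus strand) marks the epiblast after implantation. It was highest at E7.5, with 3.28 and 17.6 CPM in the WT libraries there, 0.350 and 0.441 at E8.5, then 0.847, 1.37, 0.9992 and 0.751 at E9.5. The fall into E8.5 was called (log2 fold change -4.59, edgeR adjusted p = 0.00392) although the E7.5 libraries were far apart from each other. The null libraries of E7.5 were spread in the same way, at 4.53 and 23.4 CPM, and null Epiblast held 24.4 and 128 CPM. WT Epiblast had too few cells to be among the 11 WT types ranked at E7.5. Of those 11, Visceral endoderm ranked first with 2.58 and 88.1 CPM, an uneven pair of libraries. Gut tube (12.3 and 20.5) and Ectoderm (10.06 and 10.04) followed. Which library holds the larger embryos is not given in the sources used here. In 21 of 36 WT types at E8.5 no Fgf5 UMI was found, and the highest was Placodal ectoderm at 3.09 and 8.48 CPM from 10 UMIs in 79 cells, followed by Pharyngeal mesoderm and Embryo proper mesothelium from 3 UMIs each. At E9.5 Pharyngeal mesoderm (9.17, 17.8, 6.47 and 3.55 CPM), Epicardium (6.94, 11.9, 5.96 and 8.31 CPM) and YS mesothelium (8.70, 7.84 and 0.814 CPM) led and overlapped.

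**Figure D3:**
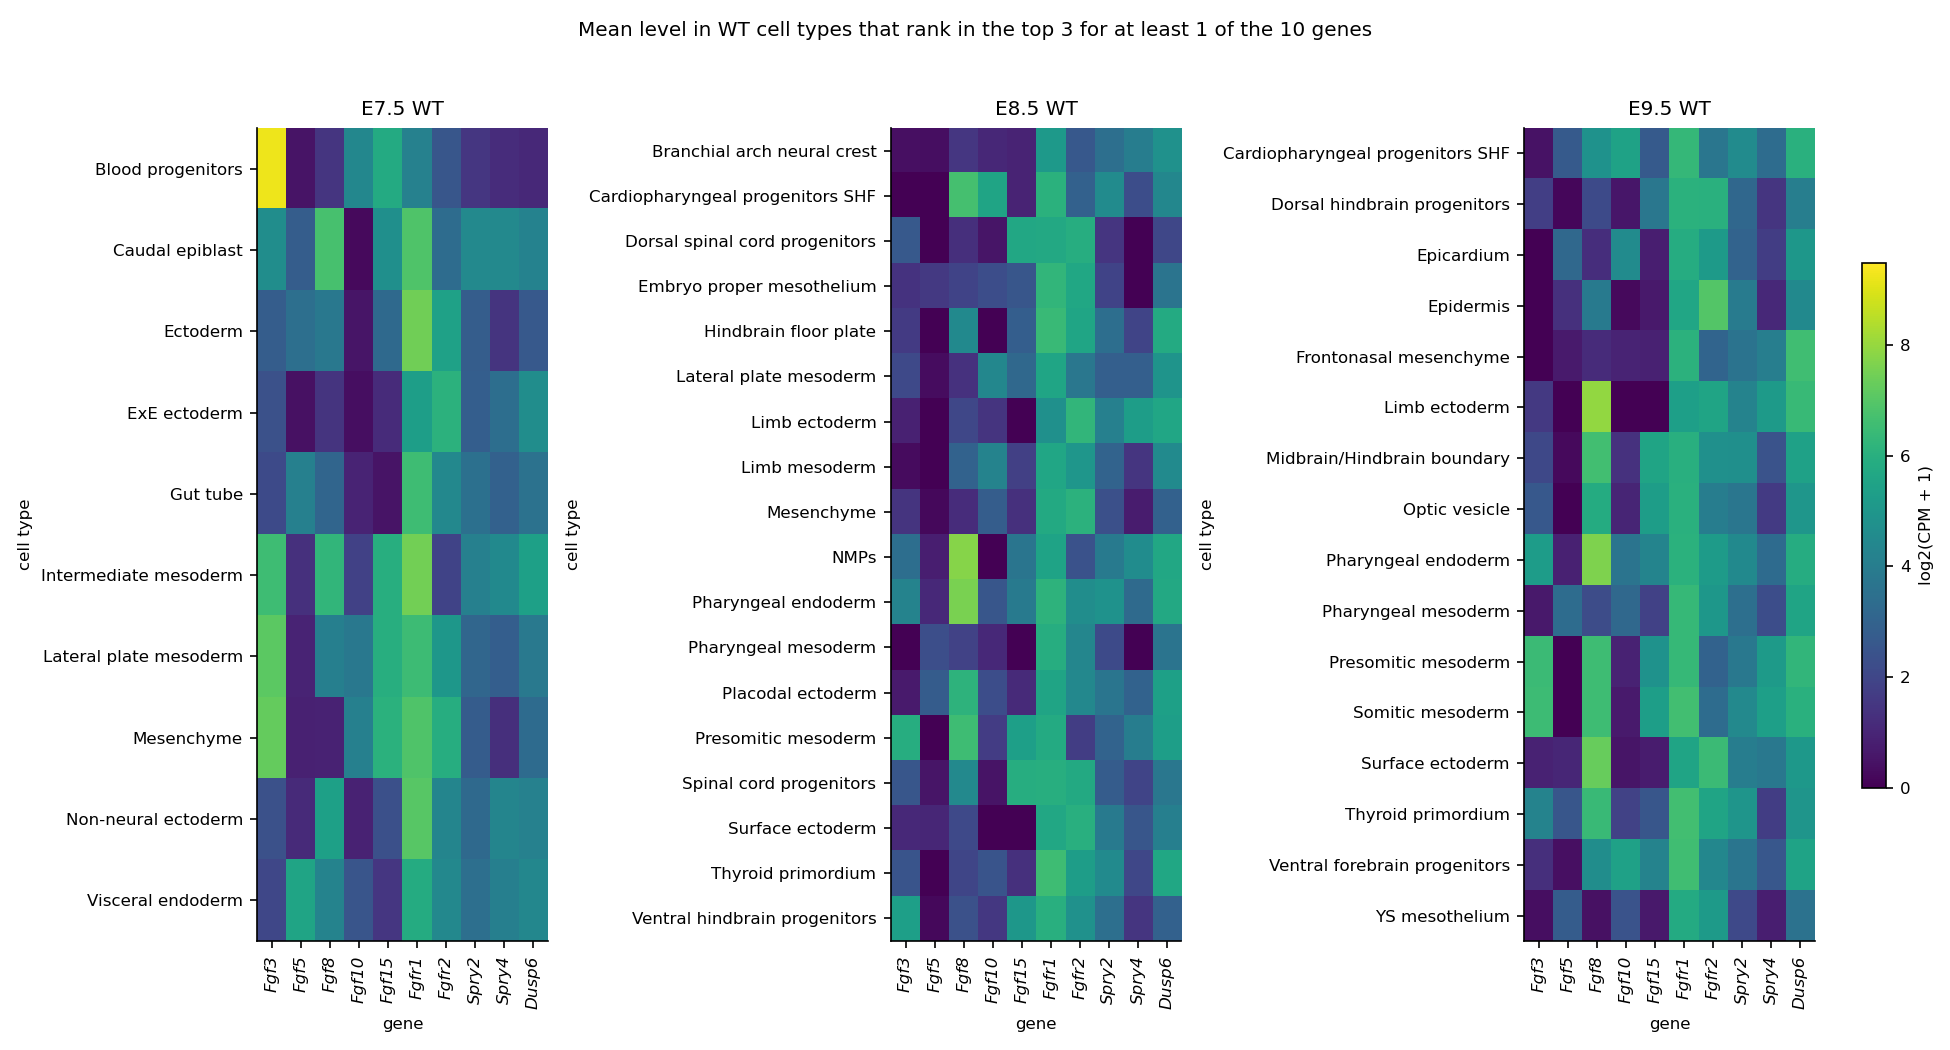
Mean level of each member (columns) in WT cell types (rows) as log2(CPM + 1) in colour, with 1 panel per stage and the types shown that rank in the top 3 for at least 1 member. Read down a column, Fgf3 is brightest in Blood progenitors at E7.5 (609.8 CPM), Fgf8 is brightest in Caudal epiblast, NMPs and Limb ectoderm at the stages in turn, and the column of Fgfr1 is filled in every type shown.

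The receptors were found in most cell types. Fgfr1 (chromosome 8, 25513654 to 25575718, GRCm38, plus strand), the main receptor of mesoderm and neural cells, held 109 and 80.9 CPM at E7.5, 40.9 and 46.7 at E8.5, then 57.5, 62.2, 64.0 and 57.1 at E9.5 in the WT libraries. Both E8.5 libraries lay below every other WT library. The first step (log2 fold change -0.94, edgeR adjusted p = 0.000622) passed the test and not the fold threshold. It was called without E7.5 WT B (-1.11), without E8.5 WT B (-1.02) and when averaged over Lateral plate mesoderm and Mesenchyme (-1.04, limma adjusted p = 0.000138). The median over types was 108, 57.9 and 63.9 CPM at the 3 stages, and the lowest E8.5 type stood at 3.32 CPM. That type was Erythroid, with 2.11 and 4.53 CPM. Intermediate mesoderm (184 and 167 CPM), Ectoderm (239 and 104) and Non-neural ectoderm (157 and 104) were first at E7.5. Thyroid primordium (91.5 and 94.3), Hindbrain floor plate (63.8 and 107) and Embryo proper mesothelium (88.0 and 63.7) were first at E8.5. Somitic mesoderm (106 and 90.0), Thyroid primordium (135, 77.7 and 80.6) and Ventral forebrain progenitors (88.2, 102, 104 and 81.5) were first at E9.5, and in each stage the types overlapped their neighbours in that order. Within types Fgfr1 fell in Mesenchyme from 128 and 108 CPM at E7.5 to 47.6 and 60.5 CPM at E8.5 (log2 fold change -1.10, edgeR adjusted p = 0.000164), a call lost without E7.5 WT A or E8.5 WT A. A rise in Erythroid cells by E9.5 (1.06, edgeR adjusted p = 0.0494) was kept under 2 of 10 alternatives.

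Fgfr2 (chromosome 7, minus strand), the receptor of surface and other epithelia, held 35.6 and 23.2 CPM at E7.5, 21.3 and 22.8 at E8.5, then 29.7, 29.6, 25.9 and 25.1 at E9.5, with no step called. Its annotated gene record runs from 130162451 to 133123350. ExE ectoderm led at E7.5 with 69.9 and 65.7 CPM, and held 33.2% of the UMIs from 12.6% of the cells. Mesenchyme (53.2 and 65.6) and Ectoderm (60.7 and 23.7) followed. Limb ectoderm (95.6 and 55.3 CPM), Mesenchyme (68.2 and 68.1) and Surface ectoderm (71.4 and 55.2) led and overlapped at E8.5. At E9.5 Epidermis led at 125, 129.8, 126 and 107 CPM, clear of Surface ectoderm at 93.7, 104 and 69.7 CPM and Dorsal hindbrain progenitors at 59.1, 71.2, 74.1 and 54.5 CPM. Fgfr2 rose in Sclerotome from 7.28 and 10.5 CPM at E8.5 to 17.9, 18.8, 15.9 and 24.4 CPM at E9.5 (1.04 on the log2 scale, edgeR adjusted p = 0.0314), a call lost under DESeq2 and without E8.5 WT A, E8.5 WT B or E9.5 WT D. It had fallen in Lateral plate mesoderm from 30.6 and 32.8 CPM at E7.5 to 12.6 and 12.8 CPM at E8.5 (log2 fold change -1.24, SE 0.24, edgeR adjusted p = 0.001). Leaving out E7.5 WT B or either E8.5 library ended that call.

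Dusp6 (chromosome 10, 99263231 to 99267489, GRCm38, plus strand), which removes phosphate from ERK, was the feedback gene with the clearest difference between E8.5 and E9.5. The WT libraries held 16.8 and 15.2 CPM at E7.5, 18.2 and 15.97 at E8.5, then 36.2, 35.3, 40.5 and 33.7 at E9.5. Every E9.5 library lay above every earlier library. In the rescaled fit the step from E8.5 was 0.83 on the log2 scale (edgeR adjusted p = 0.000541), under the fold threshold. The WT group means of 17.1 and 36.4 CPM at E8.5 and E9.5 lie further apart than that fold change. The null libraries moved by 0.82 in the same step (edgeR adjusted p = 0.000402).

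The rise of Dusp6 was seen in many cell types. These come from the same libraries and are not separate replicates of the rise. Of 31 cell types compared between E8.5 and E9.5, 30 passed the filter for Dusp6, the log2 fold change was above 0 in 27 of them with a median of 0.75, and 9 were called higher and 0 lower, against 2.17% of all tests called higher. In Optic vesicle it rose from 7.03 and 10.0 CPM to 34.6, 28.5, 36.2 and 23.7 CPM (log2 fold change 1.64, SE 0.21, edgeR adjusted p = 6.45e-06), a call kept under all 10 alternatives run. In Limb mesoderm it rose from 24.96 and 20.3 CPM to 68.6, 70.7, 64.1 and 47.1 CPM (log2 fold change 1.26, edgeR adjusted p = 0.00241). The E9.5 values lay above the E8.5 values in both. The other 7 types were Cardiopharyngeal progenitors SHF (1.50), Dorsal spinal cord progenitors (1.36), Embryo proper mesothelium (1.26), Erythroid (1.78), Mesenchyme (1.14), Pharyngeal mesoderm (1.77) and Spinal cord progenitors (1.18), given as log2 fold changes. Each of these calls, and that in Limb mesoderm, was lost without E8.5 WT A, and all but that in Erythroid also without E8.5 WT B. Those in Embryo proper mesothelium and Pharyngeal mesoderm were lost without E9.5 WT A or WT C as well, that in Spinal cord progenitors without E9.5 WT A, and 5 of the 9 under DESeq2. The highest E7.5 type was Intermediate mesoderm (45.8 and 35.7 CPM), clear of ExE ectoderm (21.5 and 26.6) and Visceral endoderm (22.0 and 17.9). At E8.5 Hindbrain floor plate (57.7 and 52.3), Pharyngeal endoderm (54.1 and 50.1) and NMPs (58.4 and 44.5) led and overlapped. The highest E9.5 types were Frontonasal mesenchyme (105, 90.04, 105 and 81.7 CPM), Limb ectoderm (76.8 and 91.3) and Presomitic mesoderm (104 and 47.7), which overlapped.

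Spry2 (chromosome 14, 105891947 to 105896819, GRCm38, minus strand), an inhibitor of RAS and ERK signalling, was not called in whole libraries. It held 9.53 and 9.38 CPM at E7.5, 7.61 and 7.69 at E8.5, then 9.31, 8.92, 9.79 and 8.46 at E9.5. Neither step was called (log2 fold changes -0.14 and -0.01 in the rescaled fit). Caudal epiblast (24.9 and 17.1 CPM), Intermediate mesoderm (21.4 and 12.1) and Gut tube (12.3 and 8.55) led at E7.5. Pharyngeal endoderm (26.8 and 28.9), Cardiopharyngeal progenitors SHF (17.8 and 27.8) and Thyroid primordium (24.4 and 20.6) led at E8.5. Thyroid primordium (38.1, 31.1 and 20.9), Midbrain/Hindbrain boundary (28.1, 28.7 and 19.3) and Cardiopharyngeal progenitors SHF (23.3, 21.4 and 24.4) led at E9.5, and in each stage the types overlapped their neighbours in that order. Caudal epiblast and Pharyngeal endoderm were also among the first types for Fgf8. In Ventral hindbrain progenitors Spry2 fell from 7.59 and 12.8 CPM at E8.5 to 5.89, 5.64, 4.42 and 7.22 CPM at E9.5 (-1.03 on the log2 scale, edgeR adjusted p = 0.0125), a call lost under DESeq2 and without E8.5 WT B or E9.5 WT C.

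Spry4 encodes another Sprouty inhibitor of receptor tyrosine kinase signalling. Its WT libraries held 10.5 and 8.25 CPM at E7.5, 3.39 and 4.33 at E8.5, then 5.41, 3.99, 4.45 and 4.39 at E9.5. The first step was called lower (log2 fold change -1.11, edgeR adjusted p = 0.00195), with no overlap, but not without E7.5 WT A (-0.95) or E8.5 WT A (-0.95), and not when averaged over Lateral plate mesoderm and Mesenchyme (-0.25). Within types it rose in Limb mesoderm from 1.61 and 1.96 CPM at E8.5 to 10.8, 9.82, 10.8 and 7.05 CPM at E9.5 (2.26 on the log2 scale, edgeR adjusted p = 0.00214) and fell in Branchial arch neural crest from 14.9 and 15.97 CPM to 8.05, 7.78, 5.56 and 9.22 CPM (log2 fold change -1.16, edgeR adjusted p = 0.00119). The stages did not overlap in either type. The rise was lost without either E8.5 library and the fall without E8.5 WT A. Intermediate mesoderm (28.8 and 15.2 CPM), Caudal epiblast (29.3 and 13.02) and Non-neural ectoderm (23.2 and 15.04) led at E7.5. Limb ectoderm (47.8 and 27.7 CPM) and NMPs (29.2 and 17.8) led at E8.5 and overlapped, followed by Branchial arch neural crest. Somitic mesoderm (60.8 and 20.1), Limb ectoderm (46.4 and 24.0) and Presomitic mesoderm (48.2 and 21.8) led and overlapped at E9.5.

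The start regions of 3 members are shown because they are the genes whose RefSeq window lies outside the annotated gene, and because ETS factors, which end the FGF relay, read GGAA. Windows came from the RefSeq promoter table (GRCm38.p6, 6 of 10 members matched), and capitals mark GGAA or its reverse TTCC, and CCGGAA or its reverse TTCCGG.
Dusp6, chr10:99262981-99263230, plus strand: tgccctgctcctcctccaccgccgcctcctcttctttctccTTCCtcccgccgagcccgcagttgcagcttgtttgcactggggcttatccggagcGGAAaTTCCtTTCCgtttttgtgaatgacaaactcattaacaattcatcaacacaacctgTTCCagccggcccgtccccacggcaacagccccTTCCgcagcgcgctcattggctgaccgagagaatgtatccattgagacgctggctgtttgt
Spry2, chr14:105896820-105897069, minus strand: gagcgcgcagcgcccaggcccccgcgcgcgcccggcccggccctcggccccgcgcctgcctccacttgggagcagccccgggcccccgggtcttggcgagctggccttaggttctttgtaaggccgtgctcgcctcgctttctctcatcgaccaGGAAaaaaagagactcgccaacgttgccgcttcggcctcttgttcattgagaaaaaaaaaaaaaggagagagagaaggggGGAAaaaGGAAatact
Fgf5, chr5:98253934-98254183, plus strand: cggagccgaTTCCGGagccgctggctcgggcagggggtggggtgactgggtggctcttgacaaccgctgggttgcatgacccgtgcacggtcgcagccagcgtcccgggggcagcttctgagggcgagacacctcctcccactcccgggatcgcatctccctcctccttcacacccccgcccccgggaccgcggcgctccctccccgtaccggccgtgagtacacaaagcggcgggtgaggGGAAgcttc

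Each window holds the 250 bases before the start of transcription, read 5′ to 3′ on the strand of the gene. On both strands, GGAA was found 6 times in Dusp6, 3 times in Spry2 and 2 times in Fgf5, and at least 1 copy was present in 93.4% of 32807 promoter windows of the same length. The longer CCGGAA was found in Fgf5 alone among the matched members, 241 to 236 bases before the start, where it overlaps 1 of the GGAA copies, and in 12% of all windows. The STAT motif TTCNNNGAA was found in none of the 6 matched members and in 7.02% of all windows, and TATAAA in 12.4%. These matches describe the letters in these windows.

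Counted over all members, changes with stage within WT cell types were as follows. From E7.5 to E8.5 only Lateral plate mesoderm and Mesenchyme had enough cells, where 16 pairs of member and type passed the filter and 8 were called (1 higher and 7 lower), against 8.55% of all tests. The single rise was Dusp6 in Lateral plate mesoderm, from 17.5 and 9.27 to 29.2 and 28.7 CPM (log2 fold change 1.35, edgeR adjusted p = 0.00259), a call lost without E7.5 WT B. From E8.5 to E9.5, 162 pairs in 31 types passed the filter and 26 were called (15 higher and 11 lower), against 3.2% of all tests. Because a filter on low counts passes genes that are high in 1 stage, these shares describe the pairs and are not a test of the members as a group. The E8.5 group held 2 libraries, and of the 26 calls 6 were kept without E8.5 WT A and 9 without E8.5 WT B. Those fits also took in the libraries of all stages and both genotypes, so the library and the wider fit cannot be told apart. The 4 calls kept under every alternative run were Fgf3 in Ventral hindbrain progenitors, Fgf15 in Dorsal spinal cord progenitors, Fgf8 in Placodal ectoderm and Dusp6 in Optic vesicle. For Fgf8 in Placodal ectoderm 7 alternatives gave a value, and for each of the others 10.

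The null cells were compared with WT cells of the same stage to ask whether loss of Stat3 in the cell itself shifted the pathway. In whole libraries 0 of 10 members were called at any stage, by the quasi-likelihood test of edgeR, where 2.35% of genes were called at E7.5, 0.0278% at E8.5 and 0.58% at E9.5. The count was also 0 in DESeq2, and 1, 0 and 0 members had an unadjusted p under 0.05 in edgeR at the 3 stages, against 12.9%, 4.56% and 10.3% of genes. The member with that unadjusted p was Fgfr2 at E7.5. Averaged over stages 0 of 10 were called, against 0.964% of genes, and 0 in DESeq2, with 1 member at an unadjusted p under 0.05 (18.7% of genes). The median log2 fold change of the members was 0.20, 0.08 and 0.11, beside 0.02, 0.00 and 0.00 for all genes, and 9, 8 and 7 of the 10 lay above 0. When levels were averaged over cell types, 2 of 10 lay above 0 at E7.5 (8 below), 7 of 9 at E8.5 and 6 of 10 at E9.5, so the direction at E7.5 turned for most members.

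The width of the intervals differed between stages. At E9.5, with 4 libraries a side, the 95% interval of the log2 fold change ran from -0.12 to 0.09 for Fgfr1, from -0.21 to 0.18 for Fgfr2 and from -0.07 to 0.23 for Dusp6. For Fgf3 it ran from -0.49 to 0.78. At E7.5 the interval of Fgf5 ran from -4.09 to 4.80, since its libraries differed so much. The stage by genotype interaction was called for 0 of 10 members in either step (1.12% and 0.0257% of genes), by edgeR and by DESeq2, with 1 and 0 members at an unadjusted p under 0.05 (11.2% and 2.51% of genes). That member was Fgfr2 between E7.5 and E8.5 (0.71, SE 0.24, edgeR adjusted p = 0.22).

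Fgfr2 at E7.5 held 20.05 and 16.1 CPM in null and 35.6 and 23.2 CPM in WT libraries. The groups did not overlap (log2 fold change -0.63, SE 0.21, edgeR adjusted p = 0.252). ExE ectoderm, a tissue to which injected ESCs add few cells, made up 15.8% and 9.37% of WT libraries and 0.0921% and 0% of null libraries, which allows a share of up to 0.833% in the second. Its 4 markers summed to 531 and 374 CPM in WT and to 109 and 115 CPM in null libraries. Elf5 (42.8 and 28.9 against 0.221 and 0.0483 CPM) and Rhox5 (343 and 225 against 3.55 and 1.26 CPM) did not overlap between the genotypes. Cdx2 (113 and 63.5 against 101 and 66.4 CPM) and Eomes (32.2 and 57.3 against 4.39 and 46.9 CPM) overlapped. With the ExE ectoderm cells left out, Fgfr2 stood at 27.7 and 18.2 CPM in WT and 20.01 and 16.1 CPM in null libraries, and the groups overlapped. In the 5 cell types where Fgfr2 passed the filter at E7.5, its log2 fold change ran from -0.29 to -0.13 and none was called.

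**Figure D4:**
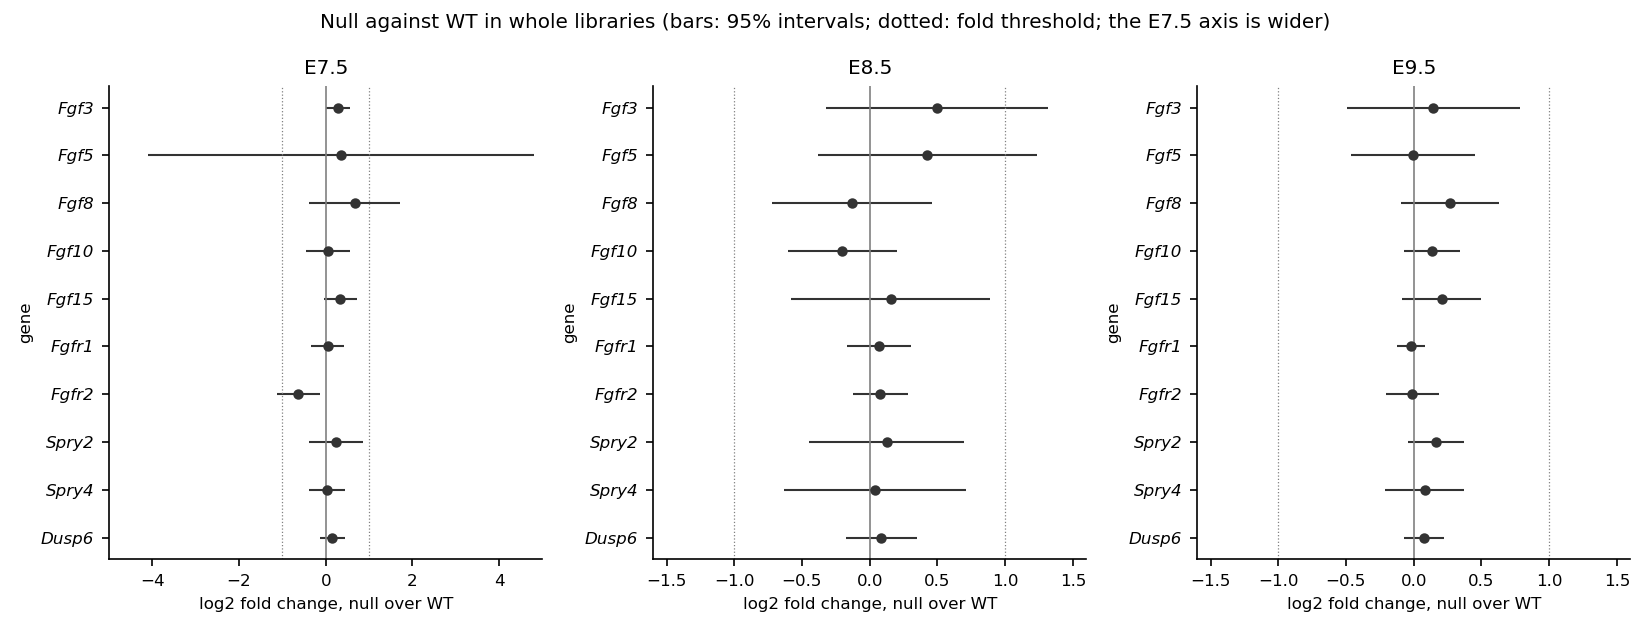
Log2 fold change of null over WT in whole libraries for the 10 members, with 95% intervals, 1 panel per stage and a wider axis at E7.5. Every interval crossed 0 except that of Fgfr2 at E7.5 (-1.13 to -0.14).

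Within cell types, Stat3 null cells gave 1 call in all. At E7.5, 53 pairs in 7 types were tested and 0 were called (0.186% of all tests), with 4 at an unadjusted p under 0.05, a share of 7.55% beside 4.06% over all tests, and 0 called by DESeq2. At E8.5, 107 pairs in 20 types gave 0 calls (0.0609%), with 13 at an unadjusted p under 0.05, a share of 12.1% beside 4.32%, and DESeq2 called 0. At E9.5, 195 pairs in 37 types gave 1 call (0.12%), with 19 at an unadjusted p under 0.05, a share of 9.74% beside 6.26% over all tests. The called pair was Fgf8 in Posterior somitic tissues, and Fgf10 in Ventral forebrain progenitors passed the test alone, under the fold threshold.

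Fgf8 in Posterior somitic tissues, trunk mesoderm next to the tail bud, was lower in null cells. The WT libraries held 27.9, 16.8, 25.5 and 11.9 CPM (20.5 ± 7.47, SD, n = 4) and the null libraries 9.63, 9.64, 10.5 and 8.82 CPM (9.65 ± 0.688, n = 4). The highest null value was under the lowest WT value (log2 fold change -1.13, SE 0.25, edgeR adjusted p = 0.0346). The values rest on 147 UMIs in 189 WT cells and 63 UMIs in 157 null cells. Genes of the neighbouring tail bud overlapped between the genotypes in this type. The Presomitic mesoderm markers (Tbx6, Msgn1, Dll1 and Hes7) summed to 9.96 to 128 CPM in WT and 8.03 to 143 CPM in null libraries, and the NMP markers (T, Nkx1-2, Cdx2 and Sox2) to 11.2 to 32.5 and 13.7 to 31.6 CPM. Msgn1 was at 0 in 3 of the 4 libraries of each genotype. The call was lost under DESeq2 (adjusted p = 0.237), with tdTomato-bearing WT cells kept (edgeR adjusted p = 0.0608), without null cells lacking a tdTomato UMI (edgeR adjusted p = 0.0527), and without E9.5 WT A, WT C or any 1 null library, where the log2 fold change stayed between -1.17 and -0.99. In Presomitic mesoderm itself Fgf8 differed by -1.06 on the log2 scale (SE 0.26, edgeR adjusted p = 0.467), which was not called.

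Fgf10 in Ventral forebrain progenitors, which include the floor of the forebrain, was higher in null cells. The WT libraries held 46.3, 47.0, 42.4 and 34.8 CPM (42.6 ± 5.57, n = 4) and the null libraries 97.1, 62.6, 68.0 and 85.7 CPM (78.4 ± 15.9, n = 4). Every null library exceeded every WT library (log2 fold change 0.89, SE 0.15, edgeR adjusted p = 0.00418). The adjusted p was under 0.05 in each of the alternatives run that gave a value, from 3.15e-06 without the filter on low counts to 0.045 without null A in edgeR, with log2 fold changes of 0.78 to 0.97 when 1 library was left out. An Fgf10 UMI was found in 24.9% of 185 WT and 28.1% of 196 null cells, at median depths of 24679 and 33018 UMIs, and in 2.63% of WT Erythroid cells at 22601 UMIs. In cells thinned to 10000 UMIs the shares were 19.5% and 21.4% and the levels 44.1 and 62.5 CPM. Ranges of forebrain markers in the same cells overlapped between the genotypes. Six3 stood at 188 to 415 CPM in WT and 402 to 543 CPM in null libraries, Rax at 96.8 to 139 and 124 to 207, and Lhx2 at 223 to 390 and 335 to 410 CPM, and the part of these differences in the Fgf10 result was not tested.

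**Figure D5:**
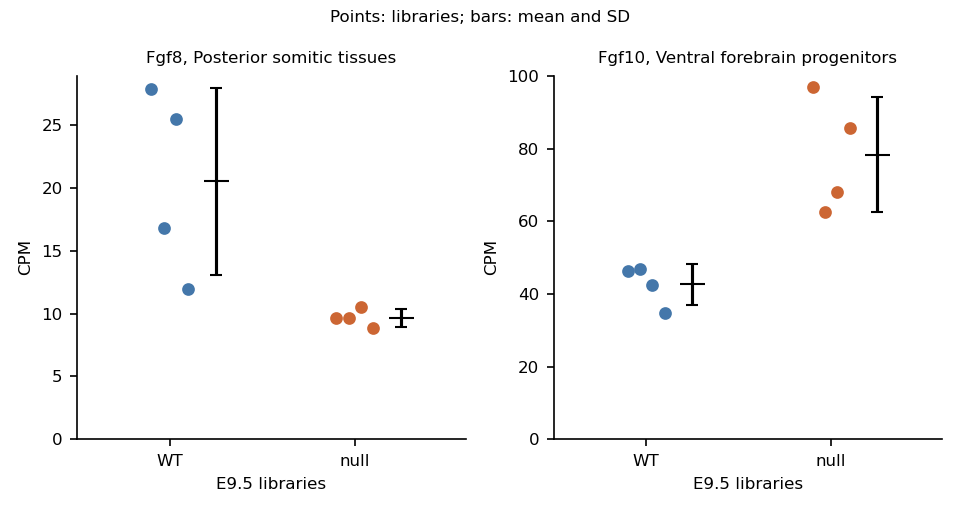
CPM of Fgf8 in Posterior somitic tissues and of Fgf10 in Ventral forebrain progenitors at E9.5, with 1 point per library and the mean and SD of 4 libraries per genotype. The null points of Fgf8 lie between 8.82 and 10.5, below all WT points, and those of Fgf10 between 62.6 and 97.1, above all WT points.

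Some pairs that missed the adjusted threshold had large differences. In Erythroid cells at E8.5, Fgf8 stood at 0.732 and 0.398 CPM in null and at 2.53 and 3.61 CPM in WT libraries from 20 and 107 UMIs (-2.21 on the log2 scale, SE 0.42, edgeR adjusted p = 0.138). In the same cells Fgf3 stood at 11.8 and 16.1 CPM in null and at 0.369 and 3.67 CPM in WT libraries (log2 fold change 2.80, SE 0.78, edgeR adjusted p = 0.475). Neither pair of groups overlapped. Erythroid cells carried 28.6% of the Fgf3 UMIs of null libraries at this stage. Differences of this size were not particular to Erythroid cells. Among the types tested at E9.5, uncalled log2 fold changes reached 2.82 for Fgf8 and -2.72 for Fgf3.

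The levels of each member over cell types were set side by side in null and WT cells. Over the types shared by both genotypes, the correlation of null and WT levels lay between 0.917 and 0.996 for the 10 members at E7.5 (7 types) and between 0.814 and 0.965 at E9.5 (37 types). At E8.5 (20 types) it lay between 0.190 for Fgf5 and 0.977 for Fgfr1. These are descriptions across types that share libraries. The highest type was the same in both genotypes for 9, 5 and 6 of the 10 members at the stages in turn. The same 4 members were called lower in null libraries from E7.5 to E8.5 (Fgf3 -3.62, Fgf5 -4.61, Fgf15 -1.45 and Spry4 -1.14 on the log2 scale, against 15.3% of genes called), and Fgf3 again from E8.5 to E9.5 (-1.51, against 10.1%).

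Other genes of the pathway were followed in a list of 59, all of them in the matrix, comprising 17 other genes of the FGF family, 7 receptors and co-receptors, 17 genes of the signal relay and 18 feedback and target genes. In whole libraries null and WT cells differed in 2 of 51 tested at E7.5 (3.92%, beside 2.35% of all genes), both lower in null, 0 of 53 at E8.5 and 0 of 52 at E9.5, with 11, 0 and 4 genes at an unadjusted p under 0.05 at the stages in turn (21.6% at E7.5, beside 12.9% of all genes). Averaged over stages 0 of 54 were called by edgeR or DESeq2, with 11 at an unadjusted p under 0.05 in edgeR (18.7% of all genes). The stage by genotype interaction was called for 2 of 54 from E7.5 to E8.5, beside 1.12% of all genes (Fgfr4 2.32 and Fosl1 5.23 on the log2 scale) and for 0 of 54 from E8.5 to E9.5 by either tool, with 1 at an unadjusted p under 0.05 in edgeR. Within cell types 0 were called at any stage in edgeR, where 5 of 222, 34 of 619 and 71 of 1200 tests had an unadjusted p under 0.05, beside 4.06%, 4.32% and 6.26% of all tests. In whole libraries 2, 0 and 0 genes were called by DESeq2, and within cell types 0 at each stage. The receptor Fgfr4 held 0.242 to 0.299 CPM in null and 1.29 to 1.33 CPM in WT libraries of E7.5 (log2 fold change -2.17, edgeR adjusted p = 0.0273). Fosl1, an AP-1 subunit, held 3 and 0 UMIs in null and 22 and 20 in WT libraries, or 0 to 0.0332 against 0.368 to 0.81 CPM (log2 fold change -4.24, edgeR adjusted p = 0.0495). With ExE ectoderm cells left out, Fosl1 stood at 0.0452 and 0.0206 CPM in WT libraries and Fgfr4 at 1.27 and 1.15 CPM, so that Fosl1 no longer differed by its ranges and Fgfr4 did. Visceral endoderm, with 102 WT cells at E7.5 and too few null cells for a level, was kept in these sums. Its part in the Fgfr4 difference was not tested.

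Between stages the called genes of the list were FGF family genes, receptors and their partners, and targets. From E7.5 to E8.5, 13 of 54 tested (24.1%, beside 17.2% of all genes) were called in whole WT libraries, 8 higher and 5 lower, with 0 of 17 in the relay (also 0 by DESeq2, and 11 with an unadjusted p under 0.05 in edgeR), while the median log2 fold change of the list was 0.02 beside 0.01 over all genes. Fgf4, the ligand between Fgf3 and Fgf15 on chromosome 7, fell with them (log2 fold change -2.84, edgeR adjusted p = 0.000423). The ligands Fgf9 (2.22), Fgf17 (1.77) and Fgf18 (2.32) rose. Of the intracellular FGF homologous factors, which are not secreted, Fgf12 rose (1.28) and Fgf11 fell (-1.21). Both stood at low levels, with WT means at E7.5 and E8.5 of 0.239 and 0.531 CPM for Fgf12 and 0.506 and 0.202 CPM for Fgf11. The adhesion partners of FGF receptors Flrt2 (2.36) and Flrt3 (1.41) rose. Among targets, Etv4 (-1.12), Dusp14 (-1.22) and Fosl1 (-3.46) fell, and the immediate early genes Egr1 (4.15) and Fos (2.13) rose. The fall of Fosl1 was not seen once the E7.5 ExE ectoderm cells were left out, when its WT libraries stood at 0.0452 and 0.0206 CPM at E7.5 against 0.0603 and 0.0267 CPM a day later. The other called genes of the list were not examined without those cells. From E8.5 to E9.5, 4 of 54 were called (7.41%, beside 9.72% of all genes). Fgfr3 rose (1.25), and Fgf16 (-2.23), Klb (-1.59) and Fgf4 (-1.08) fell. The WT means of Fgfr3 were 4.52 CPM at E8.5 and 12.9 CPM at E9.5. The genes that fell were at low levels, with WT means at E8.5 and E9.5 of 0.183 and 0.0432 CPM for Fgf16, 0.323 and 0.123 CPM for Klb, and 0.498 and 0.276 CPM for Fgf4.

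The genes whose levels most resembled each member over the 87 pairs of WT type and stage were described by Pearson's r, as a description, since types of 1 stage share their libraries. Spry4 followed the ETS genes Etv4 (0.840) and Etv5 (0.772) and the phosphatase Dusp4 (0.716). Spry2 followed Etv5 (0.766), the FGF antagonist Il17rd (0.734) and the Sprouty-related Spred1 (0.713), and Dusp6 followed Spred1 (0.673), Spred2 (0.656) and Etv1 (0.650). Among the ligands, Fgf8 was nearest to Spry2 (0.666), Etv4 (0.641) and the ligand Fgf17 (0.627). Fgf10 was nearest to Tcf21 (0.627), Hand2 (0.578) and Tbx5 (0.550), transcription factors of mesenchyme, heart and forelimb. The 3 feedback genes correlated with each other at 0.598 to 0.622. Fgfr1 was nearest to Tead2 (0.889), Arhgap35 (0.865) and Ncs1 (0.856), and Fgfr2 to Ptpn13 (0.815), Sdc4 (0.779) and Pard6b (0.755). The receptors correlated with each other at 0.417, with a Spearman's rho of 0.095.

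Fgf3 and Fgf15 were nearest to each other (0.735) apart from the antisense gene Gm26793, which correlated with Fgf3 at 0.744 and with Fgf15 at 0.890. Gm27239 was the third for Fgf15 (0.672). Gm26793 (chromosome 7, 144894560 to 144897461, minus strand) shares 931 bases with the start of Fgf15, which lies on the plus strand. The part of this overlap in the correlation was not tested. It held 4.48 ± 0.478 CPM (n = 2) at E7.5, 1.44 ± 0.0656 (n = 2) at E8.5 and 1.83 ± 0.211 (n = 4) at E9.5 in WT libraries. The brachyury gene T, a mark of streak and tail bud, came next for Fgf3 (0.608). Fgf5 was nearest to the mitochondrial transcript mt-Nd4 (0.591), to Pid1 (0.577) and to the mitochondrial transcript mt-Atp6 (0.576), in values that are low in nearly every type after E7.5.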

How the data were processed

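Single-cell counts were the authors' deposited matrix of UMI counts per gene and cell, made with Cell Ranger on mm10 and its GRCm38 annotation with the tdTomato gene added, together with their cell annotation (cell type mapped to an atlas, tdTomato call, doublet call). Of 192657 listed barcodes 41832 were in the matrix. Cells that passed the authors' quality control were kept, 3395 doublets were left out, and null cells were tdTomato-positive and WT cells tdTomato-negative without a tdTomato UMI (596 left out). No clustering was done, 0 columns of other samples were found, and groups came from the labels. Library names match no sample title, so letters only name libraries.

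Counts were summed per library, or per library and cell type (over 15 cells in 2 or more libraries a side), and tested with edgeR 4.0.16 (TMM, filterByExpr, glmQLFit robust, glmQLFTest) in R 4.3.3, adjusted by Benjamini-Hochberg over all genes tested in a comparison, separately in each cell type. Tests left out 8184 predicted, mitochondrial, ribosomal protein, haemoglobin, Y-linked and transgene rows (21269 genes entered the filter). Levels averaged over cell types, as log2(CPM + 1), were tested with limma 3.58.1, and DESeq2 1.42.0 was an alternative. The edgeR test was run on simulated counts of whole E8.5 and E9.5 libraries, with the same dispersion for every gene. Sums per cell type and fits with 1 library left out were not simulated. Alternatives changed the normalization, test, filter, fold threshold, tdTomato rule, cell minimum and libraries. Where a group held 2 libraries, leaving 1 out of a comparison of 2 groups also widened the fit. It then took in the libraries of all stages and both genotypes, so a lost call cannot be laid to the library alone. Named were the 10 members, their 3 highest WT types per stage, every called pair of member and type, the 3 genes most like each member over types, and the called genes of a pathway list of 59; other pairs were named after their values were seen. The members and lists were chosen with earlier results of these data known. Intervals and floors cover counting error only, and 3′ UMI levels are not compared between genes. Libraries held 20682659 to 138613245 UMIs. One of the marker genes examined is not reported here.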

Additional observations from a re-analysis of the deposited data

Results flagged for a closer look

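Fgf15 in whole WT libraries of E9.5 had 1 library apart from the others. WT B held 11.3 CPM and the other 3 libraries 7.49 to 7.85 CPM, so that the gap of WT B to the nearest library was 0.905 of the range of the group, above Dixon's 95% critical value for 4 libraries. The same measure was examined in 20 groups, and chance alone marks about 1 in 20 groups.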

How the results depend on the processing

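With 2 libraries a side at E7.5 and E8.5 the counts of calls moved when 1 library was left out. Without 1 of 2 libraries the fit also took in all stages and both genotypes, so the 2 changes cannot be told apart. Within WT cell types from E7.5 to E8.5, 8 pairs were called and 5 to 7 when 1 library was left out. From E8.5 to E9.5, 26 were called, 17 under DESeq2, 15 with over 50 cells per library, where 18 of the 26 could be tested, and 9 to 27 with 1 library left out. In whole WT libraries from E7.5 to E8.5, 4 members were called and 3 to 5 with 1 library left out. From E8.5 to E9.5, 1 was called, 0 without the filter on low counts, 2 without the fold threshold and 0 to 1 with 1 library left out.

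For null against WT within cell types at E8.5, 0 pairs were called, 1 with all libraries in 1 fit, 2 without the filter and 0 to 1 with 1 library left out. At E9.5, 1 was called, 0 under DESeq2, with tdTomato-bearing WT cells kept and with null cells lacking a tdTomato UMI left out, 3 without the filter, 2 without the fold threshold and 0 to 1 with 1 library left out. With over 50 cells per library the count was 0, but the called pair could not be tested there because 1 library of each genotype had that many cells. The whole-library null comparisons and both interactions gave 0 to 0 calls with 1 library left out. The cause of these moves was not tested. The settings tried for the interaction and the effect averaged over stages, other than leaving out a library, and the E7.5 levels without ExE ectoderm were chosen after seeing the data.

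Fgf8 from E7.5 to E8.5 turned from 0.08 in whole WT libraries to -1.96 averaged over Lateral plate mesoderm and Mesenchyme, 2 types where the whole libraries hold all. In cells thinned to 10000 UMIs, Fgf10 in Cardiopharyngeal progenitors SHF at E8.5 stood at 50.5 CPM (45.9 unthinned), Fgfr1 in Thyroid primordium at E8.5 at 85.4 (92.9), Fgfr2 in ExE ectoderm at E7.5 at 64.0 (67.8), Spry2 in Caudal epiblast at E7.5 at 30.04 (21.0), Spry2 in Pharyngeal endoderm at E8.5 at 32.3 (27.8) and Dusp6 in Hindbrain floor plate at E8.5 at 60.6 (55.0). Of 80 whole-library values of members, 42 of the 75 not called changed sign under at least 1 alternative and 0 of those called did. No paired analysis was possible because library names match no sample title, so the embryo pool of a library is unknown. A minimum of over 50 cells gave no value for null against WT within cell types at E7.5.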
